A study of Homo sapiens with 4 samples.

Results

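Integrins and laminins were examined in human proximal tubular cells (HPTCs) as every probe of a whole-genome expression array whose gene name was an integrin alpha subunit (ITGA), an integrin beta subunit (ITGB) or a laminin alpha, beta or gamma chain (LAMA, LAMB, LAMC). The rule used names only and no measured value. It took 38 of the 25992 gene names on the array, namely 18 alpha subunits, 8 beta subunits and 12 laminin chains, with 57 probes on 93 spots of each array. The study set out to learn how empagliflozin (Empa), an inhibitor of the sodium-glucose cotransporter SGLT2, acts on HPTCs stimulated with the cytokine IL-1β. The 4 arrays analysed here all carried RNA of cells given IL-1β (10 ng/mL) together with Empa (500 nM), with HK-2 and RPTEC/TERT1 cells on 2 arrays each, numbered as replicates 1 and 2. Neither untreated cells nor cells given only IL-1β were analysed here, and no value below is an effect of IL-1β or of Empa. All cells were grown at normal glucose, held for 24 h without serum and supplements, and harvested after 24 h. HK-2 cells are adult kidney proximal tubule cells immortalised with papillomavirus genes, and RPTEC/TERT1 cells are proximal tubule cells immortalised with telomerase. Each is a single established line, and the growth media of the lines differed, so line and medium cannot be told apart. The methods call the arrays biological duplicates while the labels give only a number, and p-values measure the spread between these arrays, which may in part be technical.

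Integrins are cell surface receptors made of 1 alpha and 1 beta subunit that link the extracellular matrix to the cytoskeleton and carry signals in both directions across the membrane. Laminins are trimers of 1 alpha, 1 beta and 1 gamma chain and form the sheet-like network of basement membranes, including the tubular basement membrane on which proximal tubule cells sit. The integrins α3β1, α6β1 and α6β4 are laminin receptors of epithelia, α6β4 being the one of hemidesmosomes. The αv integrins bind ligands with the Arg-Gly-Asp motif, and αvβ6 and αvβ8 release active TGF-β from its latent complex.

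A level below is the log2 of a gene's processed signal over the 75th percentile of the signals of its array, so 0 is the brightness of the 75th percentile and a difference of 1 is 2-fold. Levels were compared between arrays within a gene or probe, never between genes, since probes differ in brightness at equal abundance. The floor of the scale, -5.37, is the dimmest signal that could be told from background on every array, and a difference from a value at the floor is a lower bound. Values are given in replicate order within each label. The 75th percentile lay between 393 and 748 intensity units and 59.2% to 64.9% of the 43118 non-control spots of an array were well above background. No spot of an integrin or laminin probe was saturated, and repeated spots of a probe differed by a median SD of 0.084 to 0.14 on an array.

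The arrays did not fall together by their labels. Over 17928 genes, replicate 1 of HK-2 correlated at 0.980 with replicate 2 of RPTEC/TERT1 and at 0.865 with replicate 2 of HK-2. Replicate 2 of HK-2 correlated at 0.976 with replicate 1 of RPTEC/TERT1, and the RPTEC/TERT1 arrays correlated at 0.855 with each other. These correlations are over genes of the same 4 arrays, and they were the same to 3 digits when the integrin and laminin genes were left out. The arrays of replicate 1 were scanned on one date and those of replicate 2 on another, so that each scan date held 1 array of each label. What each array carries was not settled here. Results are therefore given by array as labelled, and each result on the cell lines rests on labels that the data go against.

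Of the 38 genes, 27 were well above background on all 4 arrays, 4 on 3 arrays, 1 on 2 arrays, 4 on 1 array and 2 on none. Among the 25667 genes with a value on every array, 13778 were so on all 4 arrays and 16468 on at least 2. These counts carry no test. The 32 genes above background on at least 2 arrays, 14 alpha subunits, all 8 beta subunits and 10 laminin chains, entered the test between the cell lines. ITGA8 and ITGAL, the alpha subunit of the leukocyte integrin LFA-1, were not well above background on any array. ITGAD, another leukocyte subunit, passed on replicate 2 of HK-2 alone and lay at the floor on all 4. The levels of ITGA10, a collagen receptor subunit, were -4.80, -5.37, -5.37 and -4.45, those of LAMA2 -5.37, -4.81, -4.89 and -5.07, and those of LAMB4 -5.37, -3.88, -5.37 and -5.37, in the order HK-2 and then RPTEC/TERT1. These genes were too dim for a comparison.

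**Figure D1:**
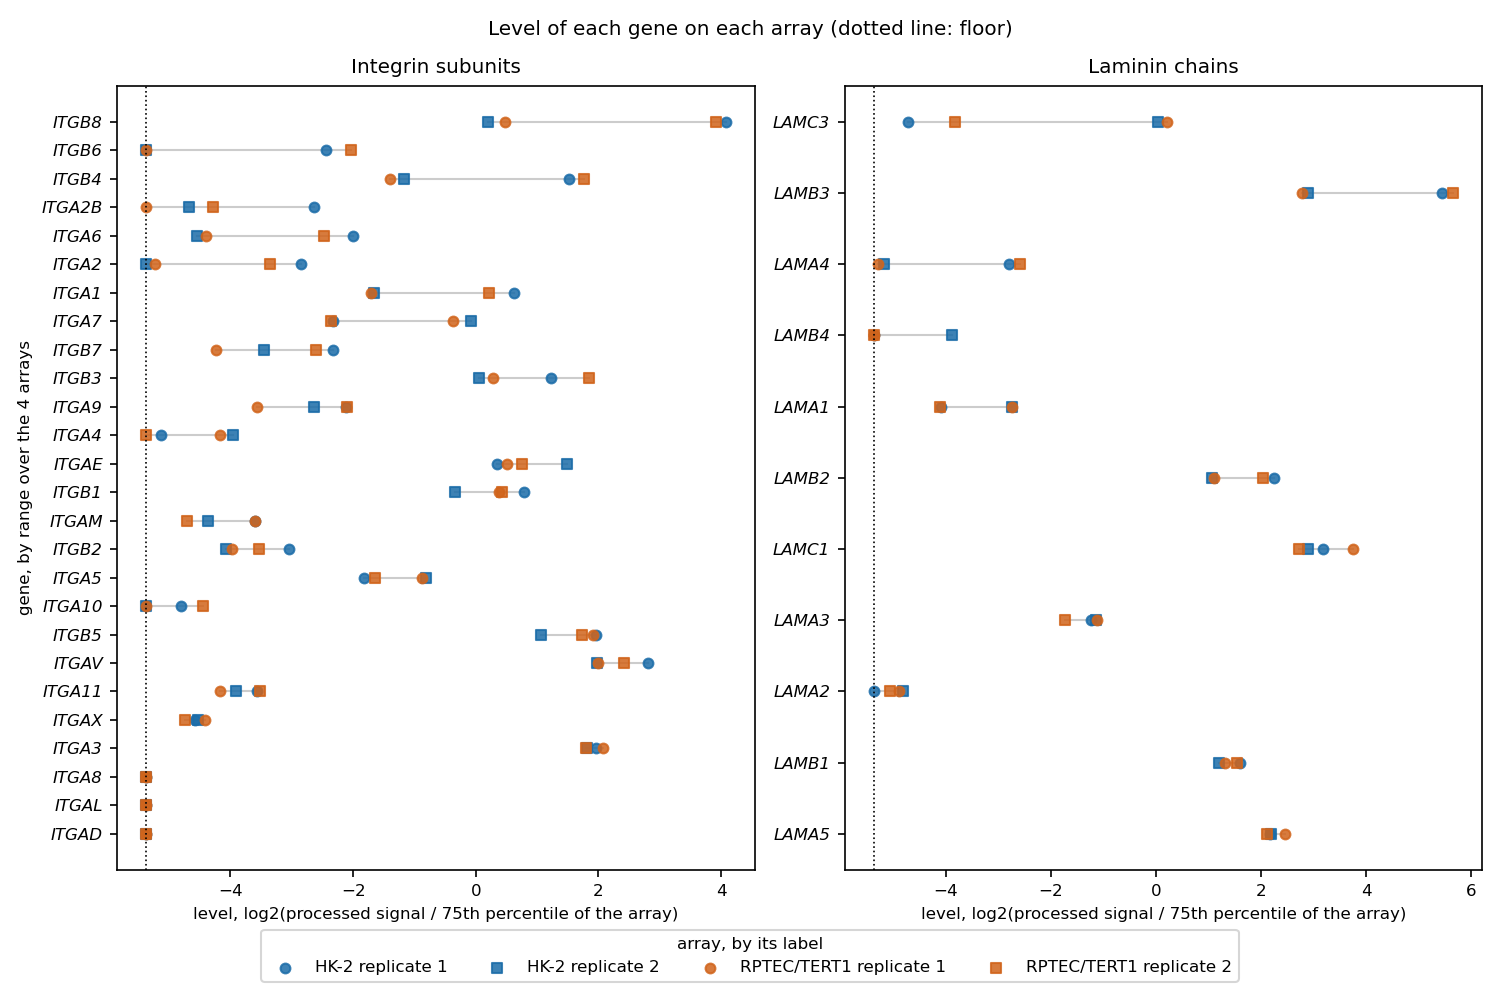
Level of 37 of the 38 integrin subunits (left) and laminin chains (right) on each of the 4 arrays, as log2 of processed signal over the 75th percentile of the array, with genes sorted by their range and colours and symbols giving label and replicate. ITGB8, ITGB4, ITGB6, LAMB3 and LAMA4 have replicate 1 of HK-2 and replicate 2 of RPTEC/TERT1 at the higher end, LAMC3 and ITGA7 have them at the lower end, and ITGA3, LAMA5 and LAMB1 span less than 1; levels are to be read along a row and not between rows.

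The part of each probe that follows is shown because the widest differences and a disagreement between probes rest on these sequences. Each line gives the first 30 of the 60 bases as the array files list them, all in lower case since no base is singled out.
ITGB8 A_24_P759477: agaatatggtactttcacataatatactat
ITGB4 A_33_P3377364: ttgtaaccaaagagctgggagcagcacaag
LAMB3 A_33_P3338121: acaaagatggtggagattggcatgccattg
LAMA3 A_23_P89780: tctaattttgaattctgaccatggataccc
LAMA3 A_33_P3262560: agtgaaaaggtggccatctacaagccagaa
LAMC3 A_23_P82979: ctgtgaactcgaccccgtgtggatagtcac
LAMC3 A_33_P3277527: gaatcgcgtatctcactggagaaggacatc
LAMC3 A_33_P3277532: actgccgtgaccacacagctgggccacact
By the files, in build GRCh37, the ITGB8 probe lies at chr7:20455137-20455196, the ITGB4 probe at chr17:73753824-73753883 and the LAMB3 probe at chr1:209788356-209788415. The ITGB8 probe has a GC content of 30%, against 38.3% to 55% in the other probes shown. Exons were not assigned, as no annotation of that build was used here.

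With the probes of a gene averaged, the beta subunits held the widest differences among the integrins, although the ITGA4 probe A_33_P3353816 alone spanned at least 3.62. ITGB8, the partner of αv in the TGF-β activating receptor αvβ8, had levels of 4.08 and 0.20 on the HK-2 arrays and 0.48 and 3.91 on the RPTEC/TERT1 arrays. Replicate 1 of HK-2 was thus 14.7-fold above replicate 2 of HK-2, and replicate 2 of RPTEC/TERT1 was 10.8-fold above replicate 1 of RPTEC/TERT1. Arrays of one label lay at both ends, whereas replicate 1 of HK-2 and replicate 2 of RPTEC/TERT1 differed by 0.16 and the other two by 0.28. ITGB4, the hemidesmosome subunit, which pairs only with α6, had levels of 1.52 and -1.17 on the HK-2 arrays and -1.40 and 1.76 on the RPTEC/TERT1 arrays, 6.47-fold and 8.93-fold within the labels. ITGB6, the epithelial partner of αv in αvβ6, had levels of -2.45 on replicate 1 of HK-2 and -2.04 on replicate 2 of RPTEC/TERT1 and was at the floor on the other two, which makes it at least 7.58-fold and at least 10.1-fold higher within the labels. All 3 of these subunits were high on the same pair of arrays and low on the other pair.

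The remaining beta subunits differed less between arrays. ITGB3, the partner of αv in the vitronectin receptor, had levels of 1.22 and 0.05 on the HK-2 arrays and 0.28 and 1.85 on the RPTEC/TERT1 arrays. ITGB7, a beta subunit best known from lymphocytes, had levels of -2.33 and -3.45 on the HK-2 arrays and -4.23 and -2.60 on the RPTEC/TERT1 arrays. Both had the array order of ITGB8. ITGB1, which pairs with most alpha subunits, had levels of 0.78 and -0.34 on the HK-2 arrays and 0.38 and 0.42 on the RPTEC/TERT1 arrays, each a mean of 10 spots with an SD of 0.057 to 0.17. Its RPTEC/TERT1 arrays differed by 0.04, less than the spread of its spots, and its HK-2 arrays by 1.13. ITGB5, another partner of αv, had levels of 1.95 and 1.06 on the HK-2 arrays and 1.92 and 1.73 on the RPTEC/TERT1 arrays, with replicate 2 of HK-2 alone set apart. ITGB2, the beta subunit of leukocyte integrins, was read on 10 spots by its brighter probe (A_23_P329573), with levels of -1.22 and -2.77 on the HK-2 arrays and -2.83 and -1.71 on the RPTEC/TERT1 arrays. Its other probe (A_23_P430411) lay near the floor, at -4.88, -5.37, -5.11 and -5.37 in the same sequence, with the arrays of replicate 1 higher.

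Among the alpha subunits, the laminin receptor subunit ITGA6 and the collagen receptor subunits ITGA1 and ITGA2 had the array order of ITGB8 and ITGB4. ITGA6 had levels of -0.93 and -3.73 on the HK-2 arrays and -3.62 and -1.20 on the RPTEC/TERT1 arrays by its brighter probe (A_23_P210176), and the other probe (A_33_P3231447) had the same 2 arrays higher. ITGA1, which pairs with β1 as a collagen receptor, had levels of 0.63 and -1.66 on the HK-2 arrays and -1.71 and 0.21 on the RPTEC/TERT1 arrays. ITGA2, the subunit of the other main collagen receptor, had levels of -2.86 and -5.37 on the HK-2 arrays and -5.24 and -3.35 on the RPTEC/TERT1 arrays. The ITGA2 value of replicate 2 of HK-2 was at the floor, so its 5.72-fold difference within that label is a lower bound.

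A smaller set of alpha subunits had the opposite order, with replicate 2 of HK-2 and replicate 1 of RPTEC/TERT1 higher. ITGA7, a laminin receptor subunit best known from muscle, had levels of -2.32 and -0.07 on the HK-2 arrays and -0.37 and -2.37 on the RPTEC/TERT1 arrays, 4.77-fold and 4.01-fold within the labels. ITGA5, the alpha subunit of the fibronectin receptor, had levels of -1.82 and -0.81 on the HK-2 arrays and -0.88 and -1.65 on the RPTEC/TERT1 arrays. ITGA4, which binds fibronectin and VCAM1, had 3 probes. The ITGA4 probe A_33_P3353816 had levels of -1.75 on replicate 2 of HK-2 and -2.08 on replicate 1 of RPTEC/TERT1 and was at the floor on the other two, while the other ITGA4 probes lay between the floor and -4.66. Of these, A_23_P56505 had the same 2 arrays higher and A_33_P3224878 had the arrays of replicate 1 higher.

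ITGA3, the subunit of the epithelial laminin receptor α3β1, differed little: 1.96 and 1.81 on the HK-2 arrays and 2.08 and 1.79 on the RPTEC/TERT1 arrays. ITGAV, the shared alpha subunit of the Arg-Gly-Asp receptors, had levels of 2.81 and 1.97 on the HK-2 arrays and 1.99 and 2.42 on the RPTEC/TERT1 arrays, from 10 spots with an SD of 0.043 to 0.11. ITGAV thus had a range of 0.84. Its partners did not share 1 range: ITGB5 had 0.89, ITGB3 1.80, ITGB6 at least 3.33 and ITGB8 3.88. ITGAE, which with β7 binds E-cadherin, had levels of 0.34 and 1.49 on the HK-2 arrays and 0.52 and 0.75 on the RPTEC/TERT1 arrays, with replicate 2 of HK-2 alone set apart.

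The other alpha subunits were dim. ITGA9 had levels of -2.11 and -2.64 on the HK-2 arrays and -3.56 and -2.11 on the RPTEC/TERT1 arrays. ITGA11, a collagen receptor subunit of fibroblasts, had levels of -3.57 and -3.90 on the HK-2 arrays and -4.17 and -3.51 on the RPTEC/TERT1 arrays. ITGA2B, the platelet subunit αIIb, had levels of -2.64 and -4.67 on the HK-2 arrays and -5.37 and -4.28 on the RPTEC/TERT1 arrays. ITGAM and ITGAX are leukocyte subunits that pair with β2. ITGAM had levels of -3.59 and -4.36 on the HK-2 arrays and -3.61 and -4.71 on the RPTEC/TERT1 arrays, but 9 of its 10 spots on replicate 1 of RPTEC/TERT1 were marked as outliers, and with them kept that array read 1.06. Of the 2 ITGAX probes, A_23_P312132 had levels of -3.80 and -4.08 on the HK-2 arrays and -4.32 and -4.12 on the RPTEC/TERT1 arrays, and A_33_P3213169 had -5.37, -4.97, -4.52 and -5.37 in the same sequence of arrays. The ITGAX probes did not share an array order.

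LAMA3 and LAMB3 encode chains of laminin-332, the laminin of hemidesmosomes. LAMB3 had levels of 5.45 and 2.90 on the HK-2 arrays and 2.78 and 5.66 on the RPTEC/TERT1 arrays, 5.87-fold and 7.32-fold within the labels and in the array order of ITGB4. LAMA3 could not be given as 1 value, since its probes ran in opposite order. The LAMA3 probe at chr18:21534735-21534794 (A_23_P89780, listed under NM_198129) had levels of 0.97 and -0.01 on the HK-2 arrays and 0.07 and 0.60 on the RPTEC/TERT1 arrays. The LAMA3 probe at chr18:21375992-21376051 (A_33_P3262560, listed under the non-coding record NR_130106) had levels of -3.46 and -2.26 on the HK-2 arrays and -2.33 and -4.05 on the RPTEC/TERT1 arrays. Their starts are 158743 bases apart in GRCh37. The mean of both, -1.24 and -1.14 on the HK-2 arrays and -1.13 and -1.73 on the RPTEC/TERT1 arrays, hides this opposition.

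**Figure D2:**
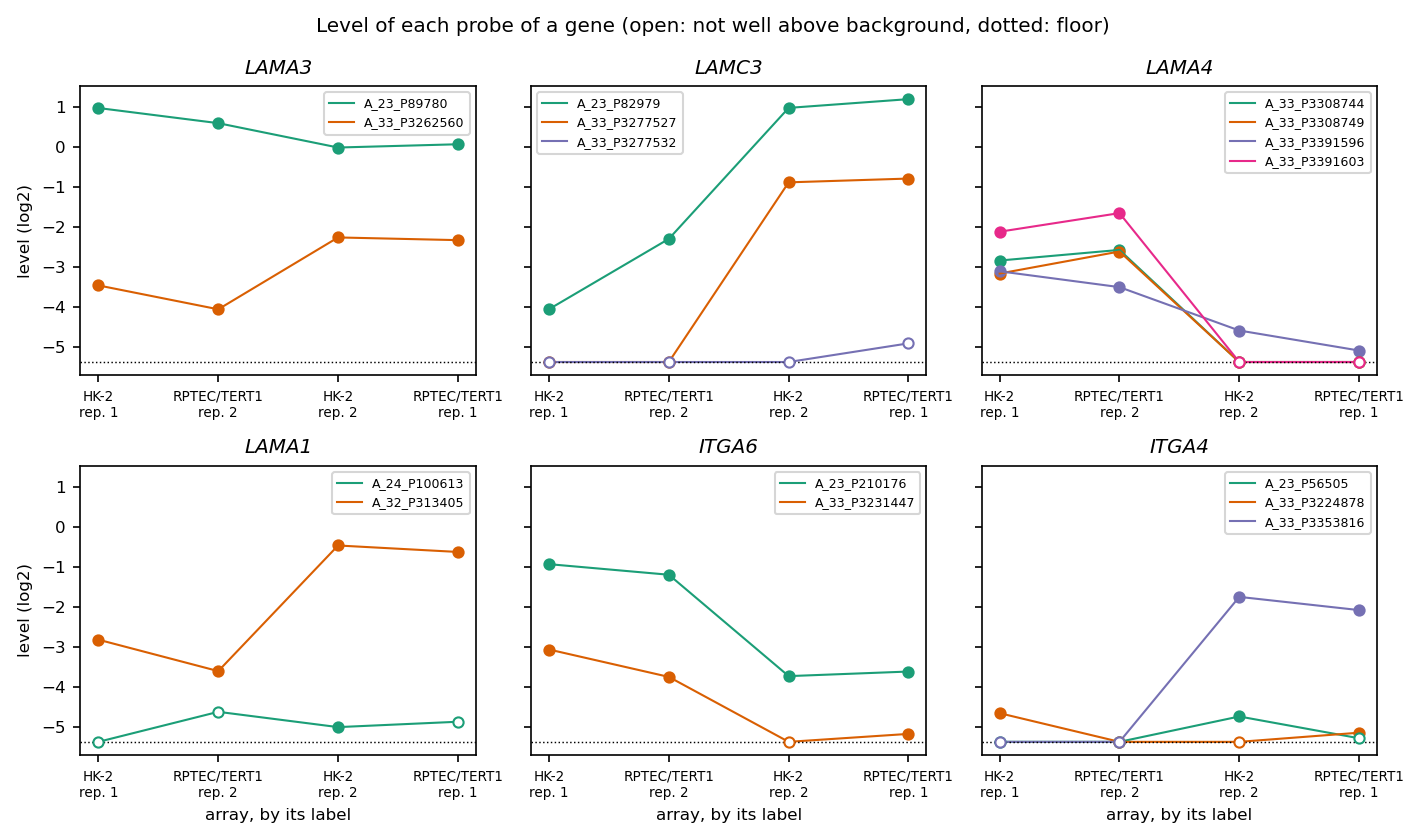
Level (log2, y axis) of every probe of LAMA3, LAMC3, LAMA4, LAMA1, ITGA6 and ITGA4 on the 4 arrays (x axis), with filled points well above background, open points not, and the dotted line at the floor of -5.37. The 2 LAMA3 probes run in opposite directions over the arrays, the probes of ITGA6 run together, and LAMC3, LAMA1 and ITGA4 each have a probe that stays near the floor.

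LAMC3, the γ3 chain, had the widest range of all 38 genes and the order opposite to LAMB3. Its probe at chr9:133967284-133967341 (A_23_P82979) had levels of -4.05 and 0.98 on the HK-2 arrays and 1.20 and -2.29 on the RPTEC/TERT1 arrays. The LAMC3 probe A_33_P3277527 had levels of -0.88 on replicate 2 of HK-2 and -0.79 on replicate 1 of RPTEC/TERT1 and was at the floor on the other two, and the LAMC3 probe A_33_P3277532 was not well above background on any array. LAMA1, the alpha chain of laminin-111, had the same order by 1 of its 2 probes (A_32_P313405), with -2.82 and -0.47 on the HK-2 arrays and -0.63 and -3.60 on the RPTEC/TERT1 arrays. Its other probe (A_24_P100613) lay at -5.37, -5.00, -4.87 and -4.62.

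LAMA4, an alpha chain best known from vessels and muscle, had 4 probes, all higher on replicate 1 of HK-2 and replicate 2 of RPTEC/TERT1. The brightest LAMA4 probe (A_33_P3391603) had levels of -2.12 and -1.65 on these and lay at the floor on the other two. LAMB2, the beta chain of laminin-521, had this order by both probes, A_33_P3338116 having 3.30 and 1.99 on the HK-2 arrays and 2.04 and 3.01 on the RPTEC/TERT1 arrays. The chains of laminin-511, the main laminin of adult epithelia, differed less. LAMA5 had 2 probes of unlike brightness and order, each of a narrow range. The brighter (A_33_P3384442) had levels of 5.79 and 5.95 on the HK-2 arrays and 6.17 and 5.73 on the RPTEC/TERT1 arrays, with replicate 2 of HK-2 and replicate 1 of RPTEC/TERT1 higher. The other (A_23_P109269) had -1.45, -1.57, -1.25 and -1.51 in the same sequence, with the arrays of replicate 1 higher. Their mean was 2.17 and 2.19 on the HK-2 arrays and 2.46 and 2.11 on the RPTEC/TERT1 arrays. LAMB1 had levels of 1.60 and 1.20 on the HK-2 arrays and 1.31 and 1.55 on the RPTEC/TERT1 arrays. LAMC1, the gamma chain of most laminins, had levels of 3.19 and 2.89 on the HK-2 arrays and 3.75 and 2.72 on the RPTEC/TERT1 arrays, and was highest on replicate 1 of RPTEC/TERT1.

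Between arrays of the same label, the median absolute difference of the 32 genes was 1.14 for HK-2 and 1.10 for RPTEC/TERT1. Between replicate 1 of HK-2 and replicate 2 of RPTEC/TERT1 it was 0.256, and between replicate 2 of HK-2 and replicate 1 of RPTEC/TERT1 it was 0.220. The remaining pairs, of one replicate number each, had medians of 0.953 for replicate 1 and 0.802 for replicate 2. Over all 16468 genes tested the 2 pairs across labels and replicate numbers were likewise the closest, at 0.216 and 0.301, against 0.669 to 0.791 for the other 4 pairs. More than 1 log2 unit separated 20 of the 32 genes between the HK-2 arrays, where 34% of all genes did so, and 18 between the RPTEC/TERT1 arrays, where 40.4% did. Values at the floor entered these differences for several genes, among them ITGB6, ITGA2 and ITGA2B. They also entered the means of LAMC3, LAMA4, LAMA1, ITGA6, ITGA4, ITGAX and ITGB2, whose HK-2 arrays differed by 1.02. The differences of such genes are lower bounds in size where probes were at the floor on only 1 array of the pair, the one of lower mean. They are no lower bounds for ITGA4 between the HK-2 arrays, where its probes were at the floor on different arrays. Nor are they for ITGB2 between the RPTEC/TERT1 arrays, where the array with a probe at the floor had the higher mean. Where a probe was at the floor on both arrays, the differences are not resolved. The same count was 15 between the arrays of replicate 1 (36% of all genes) and 13 between those of replicate 2 (33.7%). It was 2, ITGAM and ITGA2B, between replicate 1 of HK-2 and replicate 2 of RPTEC/TERT1 (4.9%) and 0 between replicate 2 of HK-2 and replicate 1 of RPTEC/TERT1 (6.78%). These counts describe the arrays and carry no test. With normexp background correction the median for replicate 1 of HK-2 and replicate 2 of RPTEC/TERT1 moved from 0.256 to 1.28, and to 0.223 once 8 spots of bright local background on replicate 1 of HK-2, none of them on an integrin or laminin probe, were left out of the correction. In the log2 values deposited by the authors it was 0.721. Under both normexp on all spots and the deposited values the RPTEC/TERT1 arrays, at 0.647 and 0.590 in place of 1.10, were then closer to each other than this pair. The pair of replicate 2 of HK-2 with replicate 1 of RPTEC/TERT1 kept the smallest median, at 0.221 and 0.232.

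**Figure D3:**
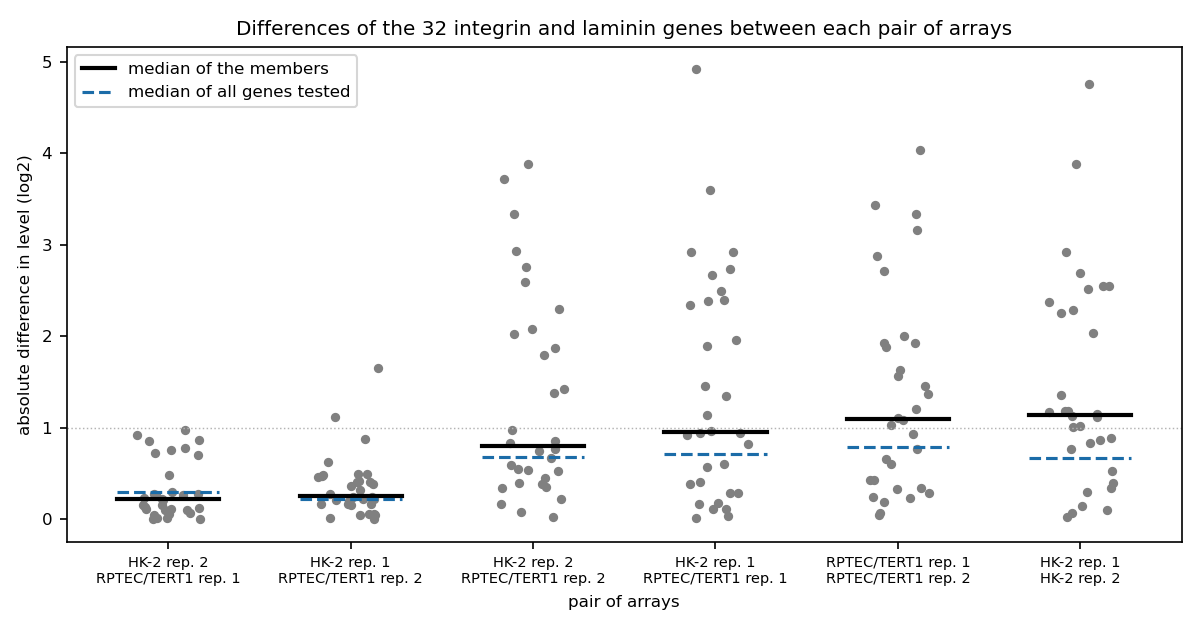
Absolute difference in level (log2, y axis) of each of the 32 integrin and laminin genes, 1 point a gene, for each of the 6 pairs of arrays (x axis), with the median of these genes (black) and of all genes tested (blue, dashed). The pairs replicate 2 of HK-2 with replicate 1 of RPTEC/TERT1 and replicate 1 of HK-2 with replicate 2 of RPTEC/TERT1 have medians of 0.220 and 0.256, and the pairs of one label have medians of 1.14 and 1.10.

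The order of the arrays was counted by which 2 of the 4 held the higher levels of a gene. Replicate 1 of HK-2 and replicate 2 of RPTEC/TERT1 were the higher 2 for 19 of the 32 genes (38.8% of all genes tested), namely 7 of 14 alpha subunits, 7 of 8 beta subunits and 5 of 10 laminin chains. Replicate 2 of HK-2 and replicate 1 of RPTEC/TERT1 were the higher 2 for 8 genes (33.2%), 4 of them alpha subunits and 4 laminin chains. The arrays of replicate 1 were the higher 2 for 4 genes (9.75%) and those of replicate 2 for 1 gene, ITGAE (10.8%). In no gene were the higher 2 both HK-2 arrays (4.36%) or both RPTEC/TERT1 arrays (2.81%). For 5 of the 32 genes the middle 2 arrays in this order differed by less than 0.141, the largest median SD of repeated spots, and the order of these is not resolved. They include ITGB1, counted in the first order, and ITGAX, LAMA3 and LAMA5, counted in the second. The probes of ITGAX, LAMA3 and LAMA5 also differed in order, so their place in the count comes from averaging. With only the 27 genes above background on all 4 arrays, the counts were 16 and 7 for the first 2 orders, against 40.7% and 31.4% of all genes on that filter.

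**Figure D4:**
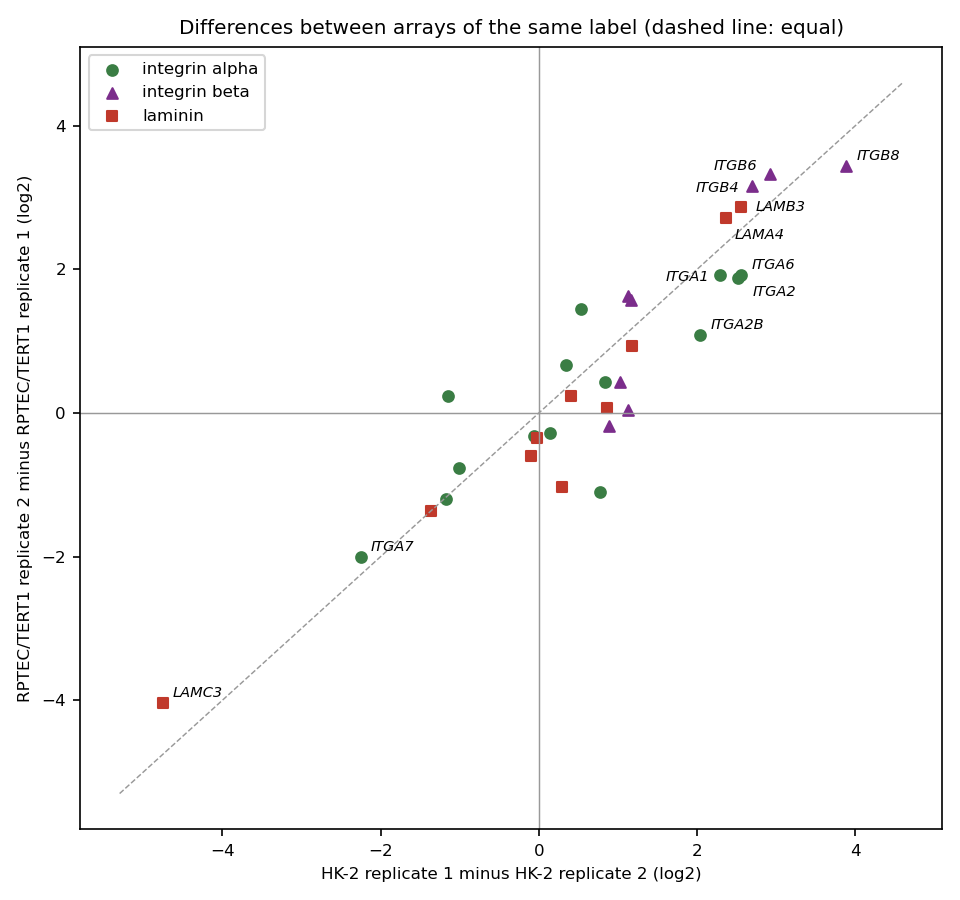
Difference between the HK-2 arrays (replicate 1 minus replicate 2, log2, x axis) against that between the RPTEC/TERT1 arrays (replicate 2 minus replicate 1, log2, y axis) for the 32 genes, coloured by family, with genes of a range of 2 or more named. For 27 of the 32 genes the signs are the same, from LAMC3 at -4.76 and -4.04 to ITGB8 at 3.88 and 3.44. Orders with replicate 1 of one label and replicate 2 of the other higher always give the same sign. They held for 38.8% and 33.2% of all genes tested, and the full share over all genes was not counted.

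The comparison of HK-2 with RPTEC/TERT1 by limma called no integrin or laminin gene. At an adjusted p under 0.05, 0 of the 32 genes and 0% of all genes tested passed, and at an unadjusted p under 0.05, 0 of the 32 and 0.14% of all genes did. The median difference, HK-2 minus RPTEC/TERT1, was 0.02 over the 32 genes and 0.02 over all genes. ITGA2B had the largest absolute difference, 1.17 with an SE of 0.89 and a 95% interval of -1.24 to 3.59 (limma, unadjusted p = 0.254, adjusted p = 1). ITGB8 had a difference of -0.06 with an interval of -4.99 to 4.87, and LAMC3 one of -0.52 with an interval of -6.41 to 5.37. ITGA3, among the steadiest genes, had a difference of -0.05 with an interval of -1.22 to 1.12, so even here a 2-fold difference in either direction lies within the interval. The SD within labels was above the absolute difference between labels in 31 of the 32 genes, the exception being ITGA2B. That gene was at the floor on replicate 1 of RPTEC/TERT1. The same share over all genes was not counted, so the 31 genes are not read as a trait of integrins and laminins.

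Within each scan date the difference rested on 1 array a label. The median over the 32 genes, HK-2 minus RPTEC/TERT1, was 0.50 in replicate 1, with 21 genes higher in HK-2, and -0.49 in replicate 2, with 20 genes lower in HK-2. Over all genes tested these medians were 0.12 and -0.08, with 54.6% higher in HK-2 in replicate 1 and 53.2% lower in replicate 2. The sign was opposite in the replicates for 31 of the 32 genes. The exception, ITGAM, rests on the single spot noted above. Orders with replicate 1 of one label and replicate 2 of the other higher always give opposite signs. They held for 38.8% and 33.2% of all genes tested. The full share with opposite signs over all genes was not counted, so the 31 genes are not read as a trait of integrins and laminins. For ITGB4 the differences were 2.92 and -2.93, for LAMB3 2.67 and -2.76, and for LAMC3 -4.91 and 3.88.

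**Figure D5:**
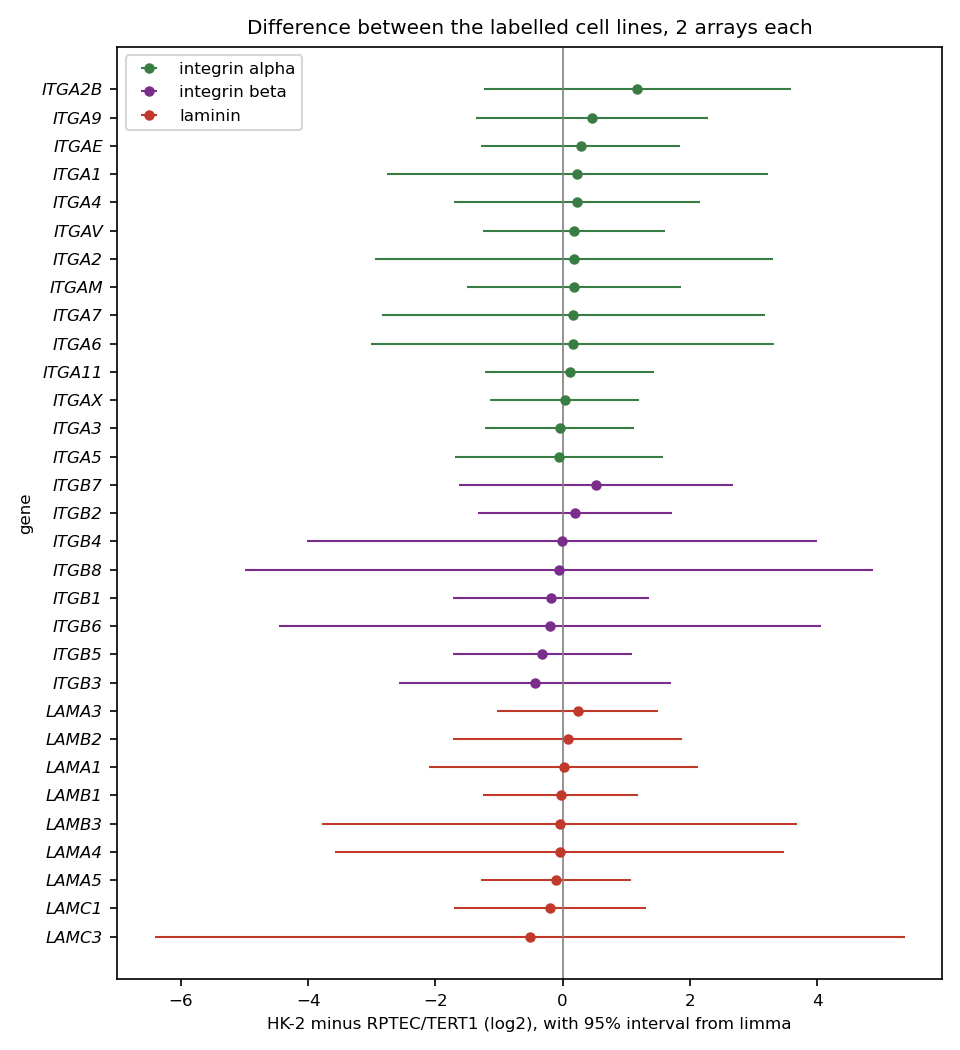
Difference HK-2 minus RPTEC/TERT1 (log2, x axis) of 31 of the 32 genes, each with its 95% interval from limma over 2 arrays a label, coloured by family. Every interval drawn crosses 0, and the widest are those of LAMC3, from -6.41 to 5.37, and ITGB8, from -4.99 to 4.87.

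Genes that work with integrins and laminins were taken from 4 lists of textbook membership. None passed the limma test at an adjusted or an unadjusted p under 0.05: 0 of 28 tested for the adhesion complex, 0 of 7 for hemidesmosomes and laminin receptors, 0 of 17 for basement membrane partners and 0 of 16 for ligands other than laminins. Their median differences between the cell lines were -0.03, -0.10, 0.01 and 0.10. The levels spanned over 1 log2 unit in 15, 5, 14 and 12 of these genes, against 52.9% of all genes tested, so the adhesion complex was near that share. CD9, a tetraspanin bound to integrins, had levels of 4.30 and -1.43 on the HK-2 arrays and -1.78 and 4.21 on the RPTEC/TERT1 arrays. CAV1, which encodes caveolin-1, had levels of 3.39 and 0.67 on the HK-2 arrays and 0.77 and 3.55 on the RPTEC/TERT1 arrays. Both had the array order of ITGB8, as did 10 of the 28 tested genes of their list (38.8% of all genes tested). The opposite order held for 9 of the 28 (33.2%), so the adhesion complex as a list did not follow ITGB8.

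Among the laminin receptors outside the integrins, BCAM had levels of -2.26 and -4.32 on the HK-2 arrays and -4.94 and -3.11 on the RPTEC/TERT1 arrays. SDC1, the syndecan-1 gene, had the opposite order, with 0.62 and 3.36 on the HK-2 arrays and 3.54 and 0.78 on the RPTEC/TERT1 arrays. Of the basement membrane genes, COL4A4, a collagen IV chain, had levels of 1.51 and -4.48 on the HK-2 arrays and -4.19 and 1.44 on the RPTEC/TERT1 arrays. NTN4, a netrin that binds laminin, had levels of 1.66 and -2.63 on the HK-2 arrays and -2.57 and 1.30 on the RPTEC/TERT1 arrays. COL4A4 and NTN4 had the order of LAMB3, as did 12 of the 17 tested genes of their list, while 4 had that of LAMC3. Among the latter, NID1 and SPARC, above background on 2 arrays only and named after their values were seen, had the wide ranges of at least 6.87 and at least 5.48. Of the ligands, CTGF had levels of 0.49 and -1.51 on the HK-2 arrays and -1.34 and -0.48 on the RPTEC/TERT1 arrays, and the matrix glycoprotein gene TNC had 1.48, -0.32, 0.66 and 0.18 in the same sequence.

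The labelled cell type was set against its markers. Of 13 genes listed as proximal tubule markers 7 were well above background on all 4 arrays, while CUBN and HNF4A, which define the differentiated proximal tubule, were so on none. The summed level of this list, as a multiple of the 75th percentile, was 48.9 and 6.27 on the HK-2 arrays and 10.6 and 47.8 on the RPTEC/TERT1 arrays. A sum is weighted toward bright probes, and this one was carried by CDH16 (4.83, -0.55, -0.55 and 4.97 in the same sequence of arrays) and PAX8 (4.13, 1.61, 2.79 and 3.73). CDH16 and PAX8 are also among the 7, and whether either marks this segment alone was not tested. The sum is therefore not read as a measure of proximal tubule identity. Gene by gene the list was divided: of its 10 genes above background on at least 2 arrays, 5 had the array order of ITGB8 and 4 (LRP2, MME, GGT1 and CDH6) the opposite order. CDH6, a cadherin gene of the developing proximal tubule, had levels of -3.26 and 0.27 on the HK-2 arrays and 0.86 and -3.49 on the RPTEC/TERT1 arrays. ANPEP, a brush border peptidase gene, was at the floor on replicate 2 of HK-2 and replicate 1 of RPTEC/TERT1 and had levels of 0.49 and 0.47 on the other two. CDH1, the E-cadherin gene, was at the floor on the same 2 arrays. The summed level of the 6 epithelial markers was 130.1 and 47.9 on the HK-2 arrays and 52.8 and 140.3 on the RPTEC/TERT1 arrays.

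Markers of other cell types were examined as well. Of 10 leukocyte markers, 9 were on the array and summed to between 1.09 and 2.12. PTPRC, CD14, CD68, ITGB2 and ITGAX were well above background on all 4 arrays, and 2, ITGAL included, on none. CD68 had levels of -0.49 and 0.15 on the HK-2 arrays and 0.62 and -0.54 on the RPTEC/TERT1 arrays. ITGB2, ITGAL, ITGAM and ITGAX of this list are themselves among the 38 genes. The 5 endothelial markers summed to between 0.220 and 0.419, with VWF, KDR and TEK above background on none. CDH5 was above background on all 4 arrays, at -2.15 and -2.36 on the HK-2 arrays and -3.02 and -2.51 on the RPTEC/TERT1 arrays. The 6 fibroblast and smooth muscle markers summed to 0.468 and 1.94 on the HK-2 arrays and 1.48 and 0.508 on the RPTEC/TERT1 arrays, with COL3A1 and PDGFRB above background on none. LUM, the lumican gene, had levels of 0.23 and -0.30 on replicate 2 of HK-2 and replicate 1 of RPTEC/TERT1 and was at the floor on the other two. ACTA2, the smooth muscle actin gene, was the reverse, with -1.56 and -1.39 on the arrays where LUM was at the floor and the floor on the others. Of the 4 genes of this list above background on at least 2 arrays, 3 had the array order of LAMC3 and 1 that of LAMB3. The 3 platelet markers, ITGA2B among them, summed to between 0.0918 and 0.571. PF4 of this list was above background on all 4 arrays, at -1.37 and -5.14 on the HK-2 arrays and -3.93 and -1.60 on the RPTEC/TERT1 arrays. The part of these markers in the integrin and laminin levels was not tested. In RNA of a whole culture, fewer cells of a type and less RNA per cell cannot be told apart.

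Promoters are shown for the 2 laminin-332 genes that held an AP-1 motif, since IL-1β acts through AP-1 and NF-κB and all 4 arrays were of IL-1β-treated cells. Windows of 300 bases around a start site, from RefSeq on GRCh38.p14, were matched for 26 of the 38 genes. TGANTCA, the AP-1 motif, which is its own reverse complement, was found in ITGA5, LAMA3 and LAMB3, that is in 3 of 33 windows against 7.71% of all 35116 windows. The NF-κB motif, searched on both strands, was found in ITGA1, ITGA10, ITGA11, ITGA5 and LAMB3, in 6 of 33 windows against 5.91% of all. The last 150 bases before the start are printed 5′ to 3′ on the strand of the gene, with TGANTCA in capitals.
LAMA3 chr18:23872870-23873019 plus strand: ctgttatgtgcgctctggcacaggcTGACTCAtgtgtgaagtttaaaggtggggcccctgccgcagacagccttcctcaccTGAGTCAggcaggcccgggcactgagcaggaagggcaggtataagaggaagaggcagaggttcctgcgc
LAMB3 chr1:209651375-209651524 minus strand: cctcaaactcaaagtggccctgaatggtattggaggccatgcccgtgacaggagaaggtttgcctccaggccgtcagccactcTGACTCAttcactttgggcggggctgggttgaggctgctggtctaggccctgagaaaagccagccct
LAMA3 has the motif at 125 and 69 bases before the start and LAMB3 at 67, in 1 of the windows listed for it. The LAMA3 window is placed in GRCh38.p14 and the LAMA3 probes in GRCh37. Which of these probes reads transcripts from this start was not assigned. Without arrays of untreated cells these matches were set against no response, and a match in a window is no evidence of binding.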

How the data were processed

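RNA of 4 HPTC samples was hybridised, 1 array each, to a one-colour 60-base oligonucleotide array. The deposited intensity values were made by the authors' scanner software, Agilent Feature Extraction 9.5.3.1 on a GRCh37 grid, with background subtraction and detrending within each array and no scaling between arrays. A table of log2 values was deposited as well, with column medians of 6.65 to 8.31, and served as an alternative. For this table the processing was not given in the sources used here. The methods and the labels name different RNA extraction kits.

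The level was the log2 of the processed signal relative to the 75th percentile of non-control spots on the same array, with low values raised to one floor. Outlier spots were left out, spots of a probe averaged, and the probes of a gene averaged where at least 1 array was well above background. HK-2 was compared with RPTEC/TERT1 by limma 3.58.1 in R 4.3.3 over the 16468 genes above background on at least 2 arrays, with Benjamini-Hochberg adjustment, a procedure tested on simulated data. Genes of the name rule are named, probe by probe where probes differ in order, and from each partner list the 2 genes of widest range among those above background on all 4 arrays. Results of a few genes are counted in the totals but not reported here. The members and lists were chosen with earlier results of these data known. RefSeq held the symbols of all 38 genes. Alternatives were normexp (offset 50), quantile scaling, the deposited log2 values, other filters, the brightest probe, outlier spots kept, each array left out and a replicate block. After the data were seen, a crossed block, the removal of the 8 spots of bright local background on replicate 1 of HK-2, and normexp without those spots were added. The array number limits the precision: the 95% interval of a difference reached a median of 1.81 log2 units to either side.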

Additional observations from a re-analysis of the deposited data

How the results depend on the processing

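No integrin or laminin gene, no partner gene and no other gene passed an adjusted p under 0.05 between the labelled lines in any alternative run, with limma throughout. Unadjusted p-values under 0.05 numbered 23 over all genes and 3 to 241 under the alternatives. The median difference of the members, 0.02, ranged from -0.23 to 0.38 with 1 array left out (the lone array of a label being assumed to vary like the other label), where 11 to 16 of the 32 differences changed sign, and from -0.03 to 0.48 under the other settings. With a replicate block in limma no gene was called and 5 had an unadjusted p under 0.05. Deviations of same-numbered arrays from their label means correlated at -0.784, which restates the array order given above. A shared effect of scan date was not tested. A crossed replicate block, drawn from the similarity seen in these same data, called 0 genes. A label and a block fitted on 4 arrays leave little to estimate the spread from, so neither count decides whether genes differ.

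Normexp moved the median absolute difference of the 32 genes to 1.46 between the HK-2 arrays, 1.59 between the arrays of replicate 1, 1.28 between replicate 1 of HK-2 and replicate 2 of RPTEC/TERT1, and 0.647 between the RPTEC/TERT1 arrays. It left 2 genes with both HK-2 arrays higher, 4 with both RPTEC/TERT1 arrays higher and 4 with replicate 2 of HK-2 and replicate 1 of RPTEC/TERT1 higher. With 8 spots of bright background left out of the normexp fit, an alternative chosen after seeing the data, replicate 1 of HK-2 and replicate 2 of RPTEC/TERT1 differed by 0.223 again, the HK-2 arrays by 0.915, the arrays of replicate 1 by 0.772 and the RPTEC/TERT1 arrays by 0.647. The deposited log2 values, in which replicate 1 of HK-2 has the median of 8.31, gave 1.23 for the arrays of replicate 1, 0.721 for replicate 1 of HK-2 and replicate 2 of RPTEC/TERT1, 0.648 for the arrays of replicate 2 and 0.590 for the RPTEC/TERT1 arrays, with 1 gene higher on both RPTEC/TERT1 arrays. Only genes above background on all 4 arrays gave 0.932 between the RPTEC/TERT1 arrays. The brightest probe gave 1.35 between the arrays of replicate 1, with 1 gene higher on both HK-2 arrays. Other causes were not tested. The arrays hold no untreated cells, and a probe near the floor has no fold beyond a bound.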
